A study of Mus musculus with 8 samples.

Results

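PPAR receptors are nuclear receptors for fatty acids and their derivatives, and 9 genes of their system are described here: the receptors Ppara, Ppard and Pparg, the partner receptor Rxra, and the target genes Plin2, Plin3, Cpt1a, Fabp5 and Angptl4. The rule lists them by name and uses no measured value, though the list was drawn up with earlier results of these data known. They are 9 of the 55276 gene symbols in the count table. All 9 passed the filter on low counts, which left 17344 genes for testing.

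The libraries are bulk RNA-seq of esophageal epithelium from C57BL6 mice aged 14 to 15 weeks, with no genetic change or drug named in the labels. Live cells that carried integrin beta-1 were sorted by Cyto-ID, a dye for autophagic vesicles, into a dim fraction (Cyto-ID Low) and a bright fraction (Cyto-ID High), and the comparison asks how the bright cells differ. Both fractions came from each of 4 animals, 2 female (Female1, Female2) and 2 male (Male1, Male2), which gave 4 libraries a fraction. What limits the comparison is that the fractions are sorted gates and not pure cell types, and that integrin beta-1 was the only surface marker in the gate.

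Library totals ran from 26285150 to 29301054 counts. The summed level of 8 basal keratinocyte markers was 20628 to 24516 CPM in Low (counts scaled to a common library size) and 2721 to 4390 CPM in High, with 8 of 8 lower. The summed level of 10 suprabasal differentiation markers was 10498 to 27253 CPM in Low and 140611 to 240349 CPM in High, with 9 of 10 higher. The labels call both fractions basal cells, while in High the basal markers were several times lower, though present. These marker levels move with every difference given below, and their part in it was not tested. In bulk RNA, fewer cells of a type and less RNA per cell cannot be told apart.

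In general, a PPAR binds DNA as a pair with an RXR, at a repeat of a short element, and a bound ligand exchanges corepressors for coactivators. PPARA is best known for fatty acid oxidation in liver, PPARG for fat cell formation, and PPARD is widespread and is prominent in keratinocytes. Their targets include coat proteins of lipid droplets, fatty acid binding proteins and enzymes of fatty acid oxidation.

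The direct repeat that PPAR and RXR pairs bind was searched for as AGGTCA, any 1 base and AGGTCA again, on both strands, in the 250 bases before RefSeq gene starts (GRCm38.p6). Windows were found for 7 of the 9 genes, 10 windows in all, and not for Fabp5 and Angptl4. None of the 10 held the exact motif, which stands in 0.0335% of all 32841 windows. A match with at most 2 mismatches stands in 3.24% of all windows, and Plin2 and the second start of Rxra have one. With at most 3 mismatches it stands in 21.3%, and Plin3 adds to the list, while the other windows had 4 or 5 mismatches at best. These stretches are shown because Plin2 and Plin3 are the coat proteins that differed in opposite directions and Rxra is the DNA-binding partner. Each is written 5′ to 3′ on the gene's strand, with the best match in capitals. A match is a description and not a site.
Plin2, chr4:86670248-86670308, minus strand, 2 mismatches, just before the gene: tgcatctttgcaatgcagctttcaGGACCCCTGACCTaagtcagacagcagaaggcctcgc
Plin3, chr17:56290547-56290607, minus strand, 3 mismatches, in an intron of a longer transcript: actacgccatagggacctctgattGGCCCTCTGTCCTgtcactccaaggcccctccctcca
Rxra second start, chr2:27709193-27709253, plus strand, 2 mismatches, in an intron of longer transcripts: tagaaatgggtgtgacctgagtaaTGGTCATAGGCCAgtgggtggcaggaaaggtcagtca

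Of the 9 genes, 5 were higher in Cyto-ID High (Ppard, Pparg, Plin2, Cpt1a and Fabp5), 2 were lower (Plin3 and Angptl4), and Ppara and Rxra did not pass the test. The test was edgeR's quasi-likelihood test with sex as a covariate and a Benjamini-Hochberg adjusted p under 0.05 over all genes. The fractions differed broadly, with 48.7% of all tested genes called, 23.4% higher and 25.3% lower, so a single call is not unusual among these libraries. For 6 of the 9 genes the CPM of the fractions did not overlap, which held for 48.6% of all genes. In each of the 4 animals 7 genes were higher and 2 were lower in High than in Low.

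**Figure D1:**
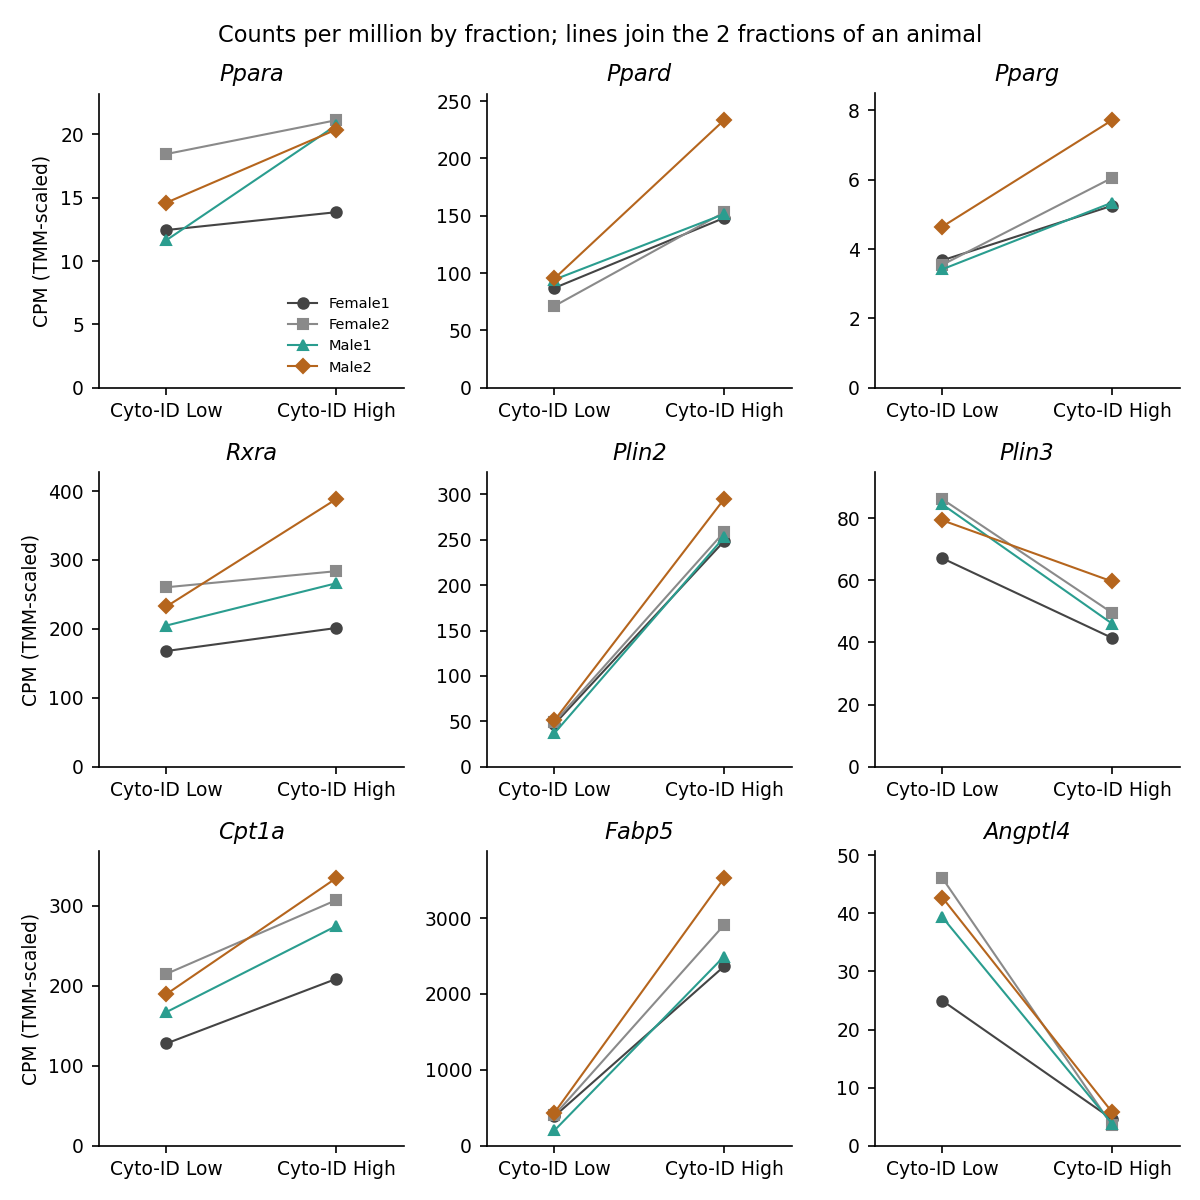
Scaled counts (CPM) of the 9 genes, on the y axis from 0, in Cyto-ID Low and High; each line joins both fractions of an animal. Plin2 and Fabp5 climb and Angptl4 falls in every animal. Ppara, Rxra and Cpt1a also climb in every animal, but their levels overlap between the fractions.

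CPM were computed after TMM scaling, edgeR's trimmed mean, which assumes that most genes do not differ. With scaling by total counts alone, the median log2 fold change of all genes went from −0.09 to −0.64, a shift of −0.55, and the share of higher calls from 48.0% to 20.5%. Under that scaling 12.6% of genes were higher and 49.1% lower. Differences of about this size or less therefore depend on the scaling. Values for single libraries are given for Low and then for High, each in the order Female1, Female2, Male1 and Male2.

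Ppard, on chromosome 17 (ENSMUSG00000002250.16, chr17:28232700-28301474, GRCm38, plus strand), was the PPAR that rose most clearly. Its level was 87.0, 71.3, 94.3 and 95.3 CPM in Low and 148, 153, 151 and 233 CPM in High. Every High library lay above every Low library, and High Male2 stood above the other High libraries. The mean rose from 87.0 ± 11.1 CPM in Low to 171 ± 41.3 CPM in High (SD, n = 4 each). On the log2 scale the change was 0.97 (SE 0.16; adjusted p = 0.000865 by edgeR). Under total counts it was 0.39 (edgeR adjusted p = 0.0125) and still called.

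Pparg (ENSMUSG00000000440.12, chr6:115360951-115490399, plus strand), the receptor of fat cell formation, was scarce. Its level was 3.68, 3.55, 3.42 and 4.65 CPM in Low and 5.25, 6.05, 5.34 and 7.72 CPM in High. No High library reached down to a Low library, although the lowest High and highest Low values lay close. The mean rose from 3.82 ± 0.561 CPM in Low to 6.09 ± 1.14 CPM in High (SD, n = 4 each). The fitted log2 fold change was 0.67 (SE 0.20; adjusted p = 0.0192 by edgeR). The differences within animals were 0.51, 0.76, 0.63 and 0.72 on the log2 scale. With the animal as a replicate block, which pairs both fractions of an animal, the fold change was 0.66 (edgeR adjusted p = 0.00624). The call still depends on the scaling and, near the threshold, on which libraries are kept. Under total counts the value was 0.089 (edgeR adjusted p = 0.686). With 1 library left out it was not called without High Female2 (0.63, edgeR adjusted p = 0.0556), Low Male1 (0.57, 0.0640) or High Male2 (0.55, 0.0592), nor without both libraries of Female1 (0.66, 0.0521) or Female2 (0.65, 0.0681).

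Ppara (ENSMUSG00000022383.13, chr15:85734983-85802819, plus strand), the receptor best known from liver, did not pass. Its level was 12.4, 18.4, 11.6 and 14.6 CPM in Low and 13.9, 21.1, 20.7 and 20.4 CPM in High. High Female1 lay within the range of Low, so the fractions overlapped, though High was above Low in all 4 animals. The means were 14.3 ± 3.04 and 19.0 ± 3.45 CPM (SD, n = 4 each), and the fitted difference was 0.41 on the log2 scale (SE 0.20; adjusted p = 0.124 by edgeR). With the animal as a replicate block, which pairs both fractions of an animal, it was 0.41 and called (edgeR adjusted p = 0.0398). It was also called without High Female1 (0.57, edgeR adjusted p = 0.0317), without Low Female2 (0.59, 0.0271) and without both libraries of Female2 (0.51, 0.0486). Under total counts the sign turned, to −0.16 (edgeR adjusted p = 0.516).

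Rxra (ENSMUSG00000015846.14, chr2:27676440-27762957, plus strand) encodes the retinoid X receptor that pairs with every PPAR. Its level was 168, 260, 205 and 232 CPM in Low and 201, 284, 266 and 388 CPM in High. The fractions overlapped, and High Male2 stood highest. The log2 fold change was 0.38 (SE 0.21, edgeR adjusted p = 0.177), with means of 216 ± 39.5 and 285 ± 77.5 CPM (SD, n = 4 each). It was −0.21 under total counts (edgeR adjusted p = 0.325) and was called only without Low Female2, of the libraries left out in turn (0.56, edgeR adjusted p = 0.0313).

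Levels of different genes can be compared only per length, here as CPM per kb of the longest coding transcript. Among the PPAR receptors Ppard took 81.4% ± 4.19 of the summed level per length in Low and 85.9% ± 2.16 in High (SD, n = 4 each). Ppara took 13.1% ± 3.87 and 9.36% ± 2.01, and Pparg 5.53% ± 0.596 and 4.74% ± 0.274. Ppard was the most abundant of the receptors in every library, with Ppara next and Pparg last.

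The ratios between receptors within a library do not depend on the scaling. The log2 ratio of Ppard to Rxra was −1.31 in Low and −0.72 in High, a difference of 0.59 (exact permutation test, p = 0.0286, adjusted over 6 ratios 0.0571). For Pparg to Ppard it was −0.30 (exact permutation p = 0.0571, adjusted 0.0857), for Ppara to Ppard −0.55 (exact permutation p = 0.114, adjusted 0.137) and for Pparg to Ppara 0.25 (exact permutation p = 0.286, adjusted 0.286). The smallest exact p that 4 against 4 libraries allow is 0.0286, and none of the 6 ratios passed after adjustment. The ratio of Ppard to Rxra was higher in High in all 4 animals, with no overlap between the fractions. Pparg to Ppard was lower in High in all 4 animals, and there the fractions overlapped.

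Plin2 (ENSMUSG00000028494.12, chr4:86648386-86670060, minus strand) encodes perilipin 2, the coat protein of most lipid droplets outside fat tissue. Its level was 46.8, 49.0, 36.9 and 51.0 CPM in Low and 248, 258, 253 and 295 CPM in High. The libraries of each fraction lay close together and far from the other fraction. The mean rose 5.73-fold, from 46.0 ± 6.27 CPM in Low to 264 ± 21.2 CPM in High (SD, n = 4 each). On the log2 scale the change was 2.52 (SE 0.16; adjusted p = 1.27e-05 by edgeR). The differences within animals were 2.41, 2.40, 2.77 and 2.53 on the log2 scale, in the order above.

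Plin3 (ENSMUSG00000024197.10, chr17:56277476-56292873, minus strand), whose product coats small nascent droplets and otherwise lies in the cytosol, went the other way. Its level was 67.1, 86.1, 84.4 and 79.3 CPM in Low and 41.4, 49.5, 46.1 and 59.6 CPM in High. No library of High reached the lowest of Low. The mean fell from 79.2 ± 8.59 CPM in Low to 49.2 ± 7.72 CPM in High (SD, n = 4 each). The fitted log2 fold change was −0.69 (SE 0.15; adjusted p = 0.00336 by edgeR). The log2 ratio of Plin2 to Plin3 within a library went from −0.79 ± 0.29 to 2.43 ± 0.12 (SD, n = 4 each), a difference of 3.22 (exact permutation test, p = 0.0286, adjusted 0.0571). Under total counts the log2 fold change of Plin3 was −1.27. Low libraries had more Plin3 than Plin2 reads and High libraries more Plin2 than Plin3, in all 4 animals, without regard to transcript length. Per kb of the longest coding transcript, Plin2 (24.3 CPM per kb) and Plin3 (21.7) overlapped in Low, with Plin2 above in 3 of 4 libraries. The sign of the ratio in Low therefore depends on length, while its difference between the fractions does not.

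**Figure D2:**
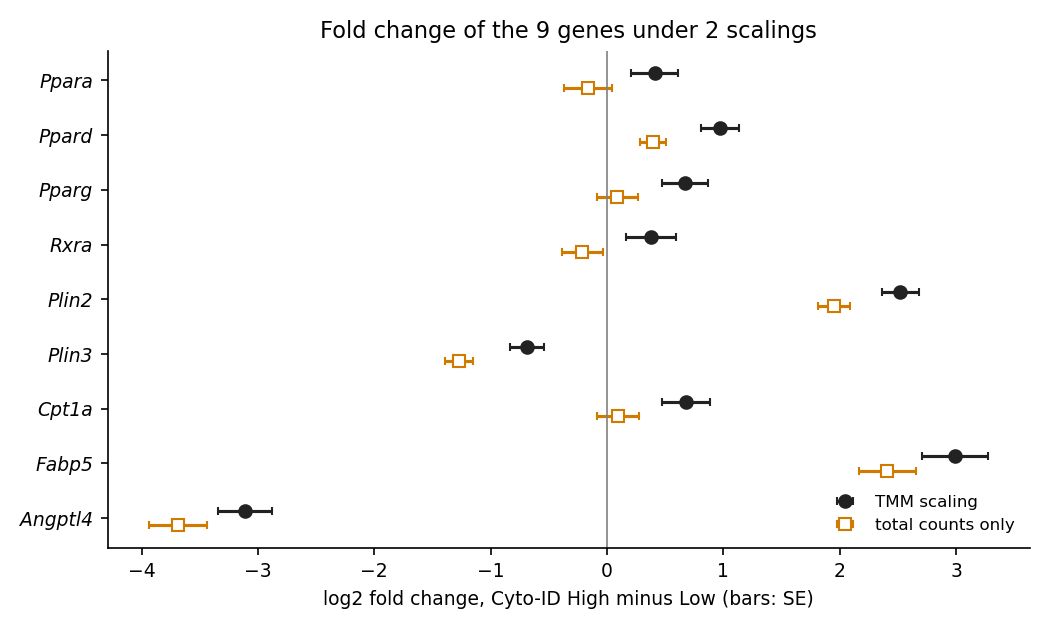
Log2 fold change of Cyto-ID High minus Low for the 9 genes (x axis; bars are SE) with TMM scaling (filled circles) and with total counts alone (open squares). Plin2 and Fabp5 stay higher and Plin3 and Angptl4 lower under both, while Ppara goes from 0.41 to −0.16 and Rxra from 0.38 to −0.21.

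Fabp5 (ENSMUSG00000027533.10, chr3:10012548-10016607, plus strand) encodes the epidermal fatty acid binding protein, which carries fatty acids in the cytosol and can pass them to PPARD. Its level was 387, 403, 201 and 435 CPM in Low and 2363, 2909, 2494 and 3526 CPM in High. It was lowest in Low Male1, and all High libraries lay far above all Low libraries. The mean rose from 356 ± 105 CPM in Low to 2823 ± 523 CPM in High (SD, n = 4 each), and the fitted rise was 7.95-fold. On the log2 scale the change was 2.99 (SE 0.28; adjusted p = 3.04e-05 by edgeR). The gene has 5 processed pseudogenes with 93.6% to 98.3% identity over their aligned bases, and the counting can split reads between them and Fabp5. Of the counts over these 6 loci, Fabp5 held 41.6% ± 2.10 in Low and 55.9% ± 4.44 in High, and the pseudogene Gm6166 held 53.2% ± 2.65 and 39.1% ± 4.27 (SD, n = 4 each). Summed over the 6 loci the level was 852 ± 233 CPM in Low and 5004 ± 287 CPM in High, higher by 2.56 on the log2 scale (SE 0.24; adjusted p = 4.01e-05 by edgeR), so the size for Fabp5 alone is uncertain and its direction was the same. The log2 ratio of Fabp5 to Plin2, as counted, was higher in High by 0.50 (exact permutation test, p = 0.0286, adjusted 0.0571). With the 5 copies added to Fabp5, an alternative chosen after seeing the data, the difference was 0.077 (exact permutation p = 0.943, adjusted 0.943) and positive in 2 of 4 animals.

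Cpt1a (ENSMUSG00000024900.5, chr19:3322334-3385733, plus strand) encodes the carnitine palmitoyltransferase that lets long-chain fatty acids enter mitochondria. Its level was 128, 215, 167 and 190 CPM in Low and 209, 307, 275 and 335 CPM in High. High Female1 lay just below Low Female2, so the fractions overlapped, while each animal had more in High. The mean rose from 175 ± 36.9 CPM in Low to 281 ± 54.3 CPM in High (SD, n = 4 each). The fitted log2 fold change was 0.68 (SE 0.21; adjusted p = 0.0208 by edgeR). Under total counts it was 0.095 (edgeR adjusted p = 0.673). It was not called without High Female2 (0.58, edgeR adjusted p = 0.0743), Low Male1 (0.60, 0.0677) or High Male2 (0.60, 0.0510), nor without both libraries of Male1 (0.67, 0.0734) or Male2 (0.69, 0.0543).

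Angptl4 (ENSMUSG00000002289.16, chr17:33773750-33781830, minus strand) encodes a secreted inhibitor of lipoprotein lipase and is a well-known PPAR target. Its level was 25.0, 46.1, 39.3 and 42.7 CPM in Low and 4.59, 3.53, 3.81 and 5.81 CPM in High. Low Female1 was the lowest of Low and still several times the highest of High. The mean fell from 38.3 ± 9.29 CPM in Low to 4.44 ± 1.02 CPM in High (SD, n = 4 each), and the fitted fall was 8.64-fold. On the log2 scale the change was −3.11 (SE 0.23; adjusted p = 1.48e-05 by edgeR). The differences within animals were −2.42, −3.68, −3.34 and −2.86 on the log2 scale.

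Per length, the 9 genes spread over a wide range. In Low the order was Fabp5 (361 CPM per kb), Rxra (44.1), Cpt1a (40.5), Ppard (26.5), Plin2 (24.3), Plin3 (21.7), Angptl4 (11.6), Ppara (4.19) and Pparg (1.80). Rxra and Cpt1a, Ppard and Plin2, and Plin2 and Plin3 overlapped in their ranges over libraries. In High the order was Fabp5 (2860 CPM per kb), Plin2 (139.6), Cpt1a (65.2), Rxra (58.1), Ppard (52.3), Plin3 (13.5), Ppara (5.57), Pparg (2.87) and Angptl4 (1.34). There Cpt1a and Rxra, and Rxra and Ppard, overlapped. With the union of all exons as the length, the order of Ppard, Plin2 and Plin3 turned round in Low, with Plin3 highest, and Rxra moved above Cpt1a in High. Angptl4 was thus above Ppara per length in Low and the lowest of all in High.

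**Figure D3:**
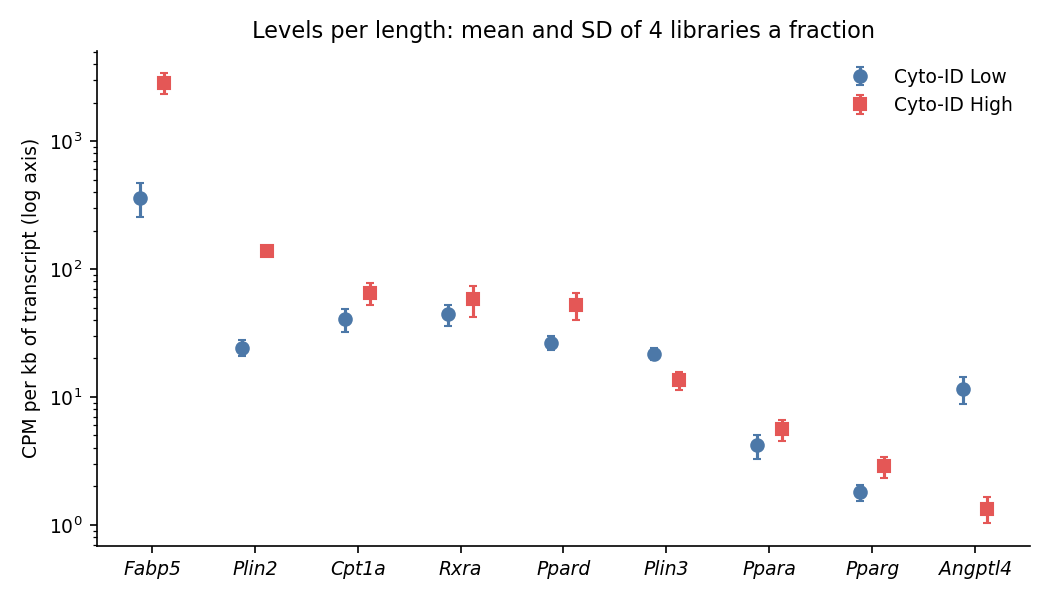
Level per length of the 9 genes, in CPM per kb of the longest coding transcript (log axis), as mean and SD of 4 libraries for Cyto-ID Low (circles) and High (squares). Fabp5 is highest in both fractions, and Angptl4 drops from 11.6 to 1.34.

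The sexes were compared through the interaction of sex and fraction. None of the 9 genes passed, and 0 of 17344 genes did (0%), with 19 at an unadjusted p under 0.05 (edgeR). Chance alone would give far more than 19, so this test was conservative, and its lack of calls says little about sex. The fitted difference of log2 fold changes, male minus female, ran from 0.03 for Angptl4 to 0.50 for Fabp5 (SE 0.54). With 2 animals per sex the SE of these differences was 0.32 to 0.54 over the 9 genes.

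Markers of other cell types that could carry Pparg or its targets were read in the same libraries. Among 9 adipocyte markers the summed level was 338 to 649 CPM in Low and 27.7 to 818 CPM in High. Fabp4 made up most of it except in High Male2, and the other 8 genes summed to 16.0 to 22.9 CPM in Low and 25.5 to 34.6 CPM in High. Most of that was Lipe, a lipase that is also on the lipid droplet list (12.5 ± 1.67 CPM in Low and 23.1 ± 2.59 CPM in High), the only adipocyte marker called. Lipe was not called under total counts (0.32 on the log2 scale, edgeR adjusted p = 0.0692). Adipoq had 0 to 8 counts and Plin1 0 to 3 counts a library. The 10 macrophage and leukocyte markers summed to 47.0 to 76.0 CPM in Low and 21.0 to 111 CPM in High. Of these 10 only Cd68, a lysosomal glycoprotein, was called (chosen after its values were seen; 4.45 ± 0.650 CPM in Low, 19.6 ± 5.14 CPM in High, adjusted p = 4.63e-05 by edgeR). The 7 Langerhans and dendritic cell markers summed to 201 to 277 CPM in Low and 100 to 160 CPM in High, much of it Epcam, a general epithelial gene, and the other 6 summed to 74.3 to 123 CPM in Low and 12.4 to 91.8 CPM in High. Of these 7, Cd207, H2-Eb1, H2-Ab1 and Epcam were called lower (−2.24, −2.20, −1.41 and −1.02 on the log2 scale), as were Dcn of the fibroblast list (−2.87) and Acta2 of the muscle list (−1.54). The 7 fibroblast markers summed to 314 to 497 CPM in Low and 38.4 to 463 CPM in High, the endothelial markers to 15.0 to 29.5 and 2.68 to 37.0 CPM, and the muscle markers to 42.6 to 66.4 and 4.73 to 63.7 CPM. High Male2 had the lowest sum in each of these lists, though not for the adipocyte genes without Fabp4, and it had the highest Pparg, Ppard, Plin2, Cpt1a and Fabp5 of all libraries. A sum of 10 gastric genes, a list written after the data were seen, was 115 CPM in High Female2, 19.1 CPM in Low Female2 and 0.362 to 1.08 CPM elsewhere. Without both libraries of Female2, Plin2, Plin3, Ppard, Fabp5 and Angptl4 were still called in the same direction.

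**Figure D4:**
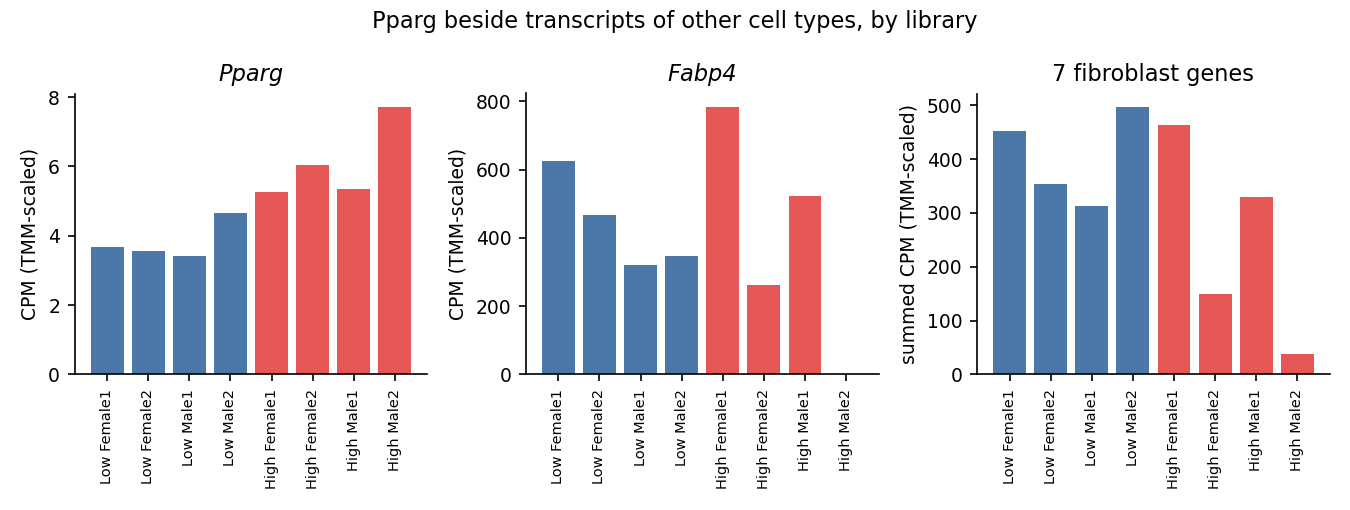
CPM by library of Pparg, of Fabp4 and of the sum of 7 fibroblast markers, for Cyto-ID Low (blue) and High (red), with bars from 0. High Male2 has the highest Pparg (7.72) and the lowest fibroblast sum (38.4), and its Fabp4 bar (1.03) is too short to see.

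The other genes of the pathway were taken from 6 lists with 110 genes, of which 87 were tested, 43 were higher and 19 lower in High. Their median log2 fold change was 0.44, against −0.09 for all genes, and −0.14 against −0.64 under total counts, where 29 were higher and 31 lower. The lists are described by counts and medians, to be read against the 23.4% of all genes called higher and 25.3% called lower. Counts under total counts are to be read against the 12.6% of all genes higher and 49.1% lower under that scaling.

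Receptor partners and coregulators had 4 of 13 tested genes higher and 4 lower (median −0.12), and 2 higher and 8 lower under total counts (median −0.68). The coactivators Ncoa1 (0.95) and Ncoa3 (0.99), both chosen after their values were seen, rose on the log2 scale, by 0.38 and 0.40 under total counts. Ppargc1b, a coactivator of mitochondrial genes, fell from 9.34 ± 0.527 to 2.44 ± 0.527 CPM (SD, n = 4 each; log2 fold change −1.94, edgeR adjusted p = 5.3e-05). Lpin1, a phosphatidate phosphatase that also acts as a coactivator, fell by 1.55 on the log2 scale (edgeR adjusted p = 0.000295). Rxrb, another partner receptor and also chosen after its values were seen, fell by 0.53 (edgeR adjusted p = 0.00596) and by 1.09 under total counts, and Rxrg was too low to test.

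Among lipid droplet genes 7 of 14 tested were higher and 1 was lower (median 0.53), and under total counts 5 were higher and 3 lower (median −0.00). Dgat2, which makes triglyceride, rose from 68.1 ± 34.0 to 703 ± 151 CPM (SD, n = 4 each; log2 fold change 3.36, edgeR adjusted p = 8.36e-05). Bscl2, which encodes seipin of droplet formation, rose by 2.21 (edgeR adjusted p = 7.19e-05), and Abhd5, the coactivator of triglyceride lipase, by 1.97 (edgeR adjusted p = 2.19e-05). Pnpla2, the triglyceride lipase itself, was chosen after its values were seen and rose by 1.44 (edgeR adjusted p = 0.0018). Genes of droplet synthesis and of droplet breakdown thus were both among those higher. The 1 lower gene, Hilpda, an inhibitor of that lipase, had a value of −0.98 (edgeR adjusted p = 0.0231), and was not called without Low Female1, High Female2, Low Male1 or Low Male2 (edgeR adjusted p = 0.0702, 0.0649, 0.0857 and 0.0811). The other perilipins were scarce, with Plin1 and Plin5 too low to test and Plin4 not called.

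For uptake, binding and activation of fatty acids, 7 of 14 tested genes were higher and 3 lower (median 0.42, or −0.11 under total counts). Slc27a4, a fatty acid transport protein of epidermis, rose from 46.1 ± 14.1 to 405 ± 73.9 CPM (SD, n = 4 each; log2 fold change 3.12, edgeR adjusted p = 1.66e-05). Acsl1, which activates long-chain fatty acids with coenzyme A, rose by 3.45 (edgeR adjusted p = 3.65e-05). Cd36, a fatty acid receptor, rose by 2.78 from a low level (1.84 ± 0.639 to 12.7 ± 2.71 CPM, edgeR adjusted p = 5.05e-05). Fabp4, the binding protein of fat cells, was at 626, 468, 322 and 346 CPM in Low and 784, 262, 524 and 1.03 CPM in High. Its log2 fold change was −0.21 (SE 1.03, edgeR adjusted p = 0.897), and 0.23 without High Male2. With a replicate block by animal it was −0.95, and by limma-voom −2.16, neither of them called. The level of Fabp4 thus varied among High libraries by orders of magnitude, which the level of Fabp5 did not.

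In mitochondrial fatty acid oxidation 11 of 19 tested genes were higher and 2 lower (median 0.59). With total counts alone 5 were higher and 5 lower (median 0.03). Cpt2, the carnitine palmitoyltransferase on the inner membrane, rose from 20.4 ± 4.89 to 67.9 ± 20.9 CPM (SD, n = 4 each; log2 fold change 1.73, edgeR adjusted p = 0.000426). Hadh, a dehydrogenase of the oxidation cycle, rose by 1.61 (edgeR adjusted p = 0.000161). Decr1, the mitochondrial reductase for unsaturated fatty acids, fell by 1.68 (edgeR adjusted p = 7.22e-05). Cpt2 and Hadh were higher under total counts as well, unlike Cpt1a.

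In peroxisomal fatty acid oxidation 11 of 15 tested genes were higher and 2 lower, with the highest median of the 6 lists (1.25). Under total counts 8 were higher and 3 lower (median 0.66). Acox2, an oxidase of branched chains and bile acid precursors, rose from 3.53 ± 2.49 to 49.5 ± 14.3 CPM (SD, n = 4 each; log2 fold change 3.80, edgeR adjusted p = 0.000238). Crot, which makes carnitine esters in peroxisomes, rose by 2.53 (edgeR adjusted p = 6.76e-05). Decr2, the peroxisomal counterpart of Decr1, rose by 2.33 (edgeR adjusted p = 1.83e-05).

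Among other textbook PPAR targets the count ran the other way, with 3 of 12 tested genes higher and 7 lower (median −1.08), or 9 lower under total counts. Acot1, a thioesterase, rose by 2.59 on the log2 scale (edgeR adjusted p = 1.62e-05), and its reads can be shared with Acot2, which has 95.1% identity. Pdk4, a kinase that turns off pyruvate dehydrogenase, was chosen after its values were seen and rose from 698 ± 96.8 to 1653 ± 241 CPM (SD, n = 4 each; 1.25, edgeR adjusted p = 0.000346). Tgm2, a transglutaminase, fell by 3.74 (edgeR adjusted p = 0.000135). Abca1, a cholesterol exporter, fell by 2.68 (edgeR adjusted p = 1.69e-05). Whether the counting used strand is not known. None of the 9 genes has an exon that overlaps another gene, but exons of Ncoa1, Ncoa3, Bscl2, Abhd5, Lipe, Plin4, Acsl1, Acsl5, Crot and Tgm2 overlap genes on the other strand, so their values are less certain.

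**Figure D5:**
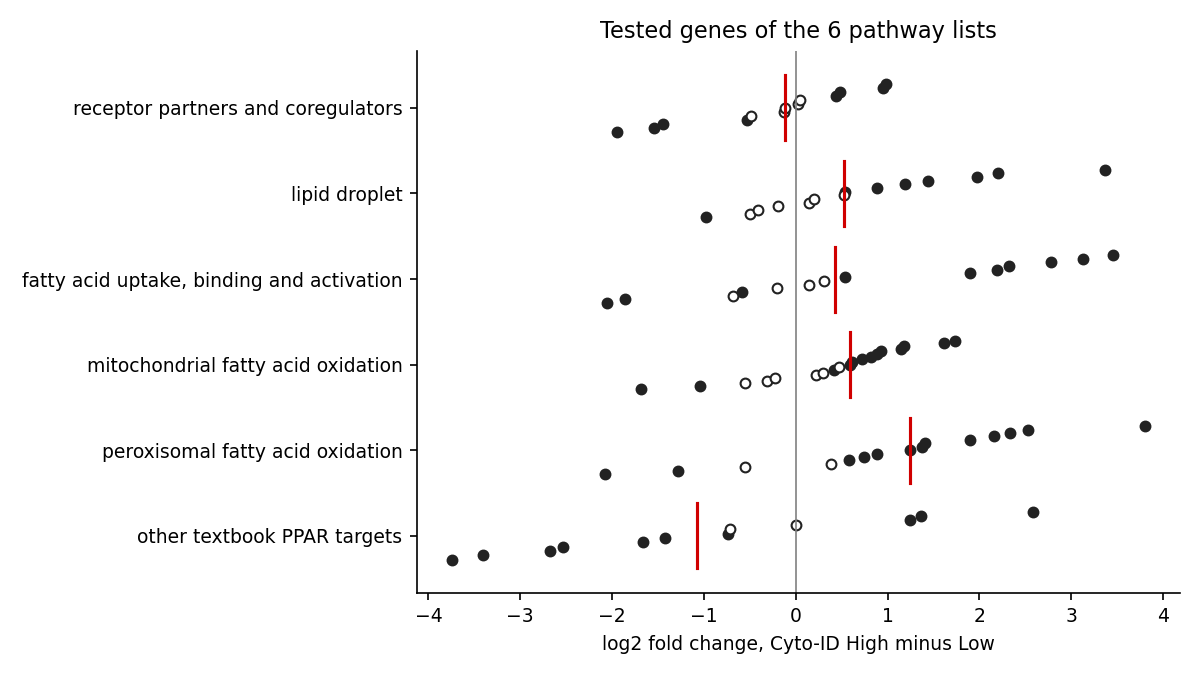
Log2 fold change of Cyto-ID High minus Low (x axis) for the 87 tested genes of the 6 lists, each point a gene, filled where the adjusted p is under 0.05; the red bar is the list's median. The median is highest for peroxisomal fatty acid oxidation (1.25) and lowest for other textbook PPAR targets (−1.08).

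Among 10007 genes of at least 5 CPM, the ones whose log2 CPM followed each of the 9 most closely over the 8 libraries were named by Pearson's r. This r is a description, since the 8 libraries are 2 fractions of 4 animals and any gene with a like difference between fractions scores high. For Ppard they were Nrbp1 (r = 0.995) and Crip2 (0.994), for Pparg Trappc4 (0.993) and Wsb2 (0.992), for Ppara Efna4 (0.966) and Pogk (0.966), and for Rxra Scfd2 (0.991) and Rapgefl1 (0.988). Plin2 was most like S100a14 (0.998) and Lpin3 (0.998), and Plin3 like Prkd2 (0.997) and Inpp5e (0.996). Cpt1a was most like Rassf5 (0.995) and Eif4ebp2 (0.994), Fabp5 like Atp6v0e2 (0.998) and Il22ra1 (0.998), and Angptl4 like Tgfbi (0.999) and Marveld1 (0.998). Among the 9 genes themselves, with fraction means removed, r was 0.98 for Plin2 and Fabp5, 0.95 for Rxra and Cpt1a and 0.94 for Rxra and Plin3. These pairs were picked as the highest, and the others ran down to −0.10 for Ppara and Ppard. With 8 libraries, such values are loose.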

How the data were processed

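The table deposited by the authors holds raw counts, as its whole numbers and unequal totals show. STAR 2.7.3, DESeq2 and GRCm38 are named in the submitters' processing notes, without their roles; the counting tool, annotation, strandedness and filters are not given in the sources used here. Libraries were grouped by the labelled Cyto-ID fraction. Counts were tested in R 4.3.3 with edgeR 4.0.16 (filterByExpr by fraction, TMM, glmQLFit and glmQLFTest, sex as a covariate, Benjamini-Hochberg over 17344 genes, two-sided). DESeq2 1.42.0, limma 3.58.1 (voom), other scalings and filters, the animal as a replicate block and left-out libraries were alternatives. Both fractions of an animal come from 1 suspension, per the labels' protocols, and the deviations of same-animal libraries correlated at 0.433, 0.316, −0.016 and 0.277. Ratios had a prior count of 0.5. The 9 genes and all lists were chosen with earlier results of these data known. From each pathway list up to 3 genes were named: the largest absolute log2 fold change among those called, with a mean of at least 5 CPM and 1 sign in all 4 animals. Some genes that this rule names are not reported here. Gene positions and transcript lengths come from GENCODE M21 (GRCm38) and promoters from RefSeq (GRCm38.p6). On simulated counts the sex fit recovered 68.5% of 197 genes changed by 1.5 on the log2 scale and called 7 others of 16899. Far fewer genes were changed there than were called in the data, equally many up and down. Both fractions of an animal were drawn independently. The simulation therefore cannot speak to the scaling or to the pairing by animal.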

Additional observations from a re-analysis of the deposited data

Results flagged for a closer look

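In 4 of 84 groups of 4 libraries, 1 library stood far from the other three by Dixon's criterion, and chance gives about 1 in 20. Ppara in Cyto-ID High was lowest in Female1, at 13.9 CPM. Ppard in Cyto-ID High was highest in Male2, at 233 CPM. The log2 ratio of Pparg to Ppara in Cyto-ID Low was lowest in Female2, at −2.37. The log2 ratio of Fabp5 to Plin2 in Cyto-ID Low was lowest in Male1, at 2.44.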

How the results depend on the processing

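Of the 49 log2 fold changes recomputed, 39 had 1 direction and 1 side of the threshold under every setting, among them those of Ppard, Plin2, Plin3, Fabp5 and Angptl4. The cause of the changes below was not tested. Scaling by total counts alone gave 2194 genes higher and 8514 lower, coregulators 2 higher and 8 lower, droplet genes 3 lower, and mitochondrial oxidation genes 5 higher and 5 lower; log2 fold changes were −0.16 for Ppara, −0.21 for Rxra, −0.033 for Acsl5, 0.089 for Pparg and 0.095 for Cpt1a. Without a filter on low counts, 2 coregulators were higher and Pparg was at 0.63 (edgeR adjusted p = 0.0732). Droplet genes had 2 lower with at least 10 counts in every library, with no covariate and with the replicate block. The replicate block by animal called 9336 genes, 8393 of them also called without it, and Ppara at 0.41; it changed no other call among the 9 genes.

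With libraries or animals left out, 6563 to 8106 genes and 5 to 9 of the 9 genes were called, droplet genes had 0 to 2 lower, and log2 fold changes ran from 0.28 to 0.59 for Ppara, 0.55 to 0.77 for Pparg, 0.22 to 0.56 for Rxra, 0.53 to 0.87 for Cpt1a and −1.60 to 0.24 for Fabp4. The last was 0.23 without High Male2. Leaving out both libraries of Female2 gave 0.51 for Ppara and 0.65 for Pparg, of Female1 0.66 for Pparg, and of Male1 and Male2 0.67 and 0.69 for Cpt1a. Paired by animal (replicate block), the exact sign-flip test of a ratio cannot go below p = 0.125, and the smallest adjusted value was 0.188. Pparg rests on 110 to 154 counts a library and Angptl4 in High on 81 to 119, the lowest counts among the 9 genes.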

Other observations

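Within some families of fatty acid genes, members of like activity differed in opposite directions. These genes were singled out after their values were seen. With 23.4% of all tested genes called higher and 25.3% lower, opposite calls within a family are not unusual. Among long-chain acyl-CoA synthetases, Acsl1 rose while Acsl4, which prefers polyunsaturated fatty acids, fell from 85.3 ± 10.3 to 20.4 ± 1.82 CPM (SD, n = 4 each; log2 fold change −2.06, edgeR adjusted p = 1.33e-05). Acsl5 rose by 0.54 (edgeR adjusted p = 0.00943), and Acsl3 and Acsl6 were not called. Among fatty acid transport proteins, Slc27a4 rose while Slc27a3 fell by 1.85 (edgeR adjusted p = 0.000766) and Slc27a1 by 0.59 (edgeR adjusted p = 0.017). Of the reductases for unsaturated fatty acids, the peroxisomal Decr2 rose and the mitochondrial Decr1 fell. Dbi, which binds acyl-CoA, rose from 83.4 ± 13.8 to 382 ± 61.7 CPM (2.20, edgeR adjusted p = 2.21e-05). These directions held under total counts alone, except that of Acsl5, which was −0.033.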
